A study of Mus musculus with 4 samples.

Results

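The blood-brain barrier transporter genes described here are 10 genes, taken by name from the 41862 gene columns of the deposited tables: Slc2a1, Slco1a4, Slco1c1, Slc7a5, Slc7a1, Slc16a1, Mfsd2a, Abcb1a, Abcg2 and Car4. All 10 were measured, and all 10 passed the floor in every comparison counted below, a mean of at least 50 counts per 1000000 UMIs (CPM). Cells of the central nervous system were prepared from C57BL6 animals with Aldh1l1CreERT2-TdTomato, a tamoxifen-dependent reporter driven by an astrocyte promoter. TdTomato+ cells with surface LAMP1 were sorted by surface TRAIL and captured by inDrops, in which molecules of RNA are counted through random tags called UMIs. The 4 groups were naive TRAIL-, EAE TRAIL-, naive TRAIL+ and EAE TRAIL+, with 1 library each. EAE is experimental autoimmune encephalomyelitis, induced with 150 µg of the myelin peptide MOG35-55 in complete Freund's adjuvant and taken at its peak. Each condition had 3 mice. Pooling of their cells, their ages and their sexes are left unstated in the labels.

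With 1 library per group, no spread between animals could be measured and no test was made. Each interval below is an exact 95% interval that covers counting error only. Differences are counted at 1.5-fold and set beside the share of all compared genes that reached the same fold in the same direction.

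Endothelial cells of brain capillaries are sealed by tight junctions, so nutrients cross them through carrier proteins and many lipophilic compounds are pumped back into the blood. The genes have several roles. Slc2a1 encodes the glucose carrier GLUT1, Slc16a1 the lactate and ketone carrier MCT1, Slc7a5 the large neutral amino acid carrier LAT1 and Slc7a1 the cationic amino acid carrier CAT1. Slco1a4 and Slco1c1 encode organic anion carriers, of which the product of Slco1c1 also carries thyroxine. Mfsd2a encodes a carrier of lysophosphatidylcholine with docosahexaenoic acid that also restrains transcytosis in brain endothelium. Abcb1a and Abcg2 encode the efflux pumps P-glycoprotein and BCRP. Car4 encodes a membrane-anchored carbonic anhydrase on the luminal face of capillaries, which is an enzyme and not a carrier.

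The labels call the sorted cells astrocytes, but astrocyte-like barcodes were few: 34 of 2218 (naive TRAIL-), 3 of 1569 (EAE TRAIL-), 146 of 2225 (naive TRAIL+) and 8 of 1810 (EAE TRAIL+). Vascular cells made up most of the naive TRAIL- library. Its capillary-like class held 904 barcodes, its arterial-like class 224, its pericyte-like class 502 and its choroid plexus-like class 89. EAE TRAIL- held 387, 82, 453 and 41 in the same order. The capillary-like class was led by Itm2a, Cldn5, Spock2, Ctla2a and Flt1, the arterial-like class by Sema3g and Gkn3, and the pericyte-like class by Vtn and Rgs5. Clusters were found without the 10 transporters, so their levels did not shape the classes. A venous-like class, from a sub-cluster led by Cxcl1, Lcn2, Cxcl2, Ptgs2 and Vcam1, held only 14 and 23 barcodes in these libraries. Venous markers such as Lcn2, Vcam1, Lrg1 and Icam1 are also in the endothelial activation list used below. Venous and activated endothelium therefore cannot be told apart in this class. The TRAIL+ libraries were mostly microglia-like, and capillary-like barcodes numbered 42 in naive TRAIL+ but 3 in EAE TRAIL+. Libraries shared between 22 and 40 of their barcode sequences, or 1.40% to 2.55% of the smaller library in each pair.

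In the GENCODE annotation of GRCm38, Slc2a1 lies at chr4:119108711-119137983 on the plus strand, Slc7a1 at chr5:148327410-148399904 on the minus strand, Car4 at chr11:84957786-84966044 on the plus strand and Mfsd2a at chr4:122946850-122961188 on the minus strand. RefSeq start sites of GRCm38.p6 were found for 9 of the 10 genes, in 12 windows of 250 bases ending at the base before the start. The windows of 3 genes are shown: Slc7a1 and Car4, which were lower in EAE in every capillary sub-cluster compared below, and Mfsd2a, the lipid carrier, whose single window held both TCF/LEF and HIF cores. Capitals mark matches, on either strand, to 1 of 7 cores: CTTTGA (TCF/LEF), TGTTTAC (FOX), ACAATG (SOX), CCGGAAG (ETS), ACGTG (HIF), TTCNNNGAA (STAT) and GGGCGG (SP/KLF). Each sequence runs 5′ to 3′ in the direction of transcription.
Slc7a1 (chr5:148399905-148400154, minus strand): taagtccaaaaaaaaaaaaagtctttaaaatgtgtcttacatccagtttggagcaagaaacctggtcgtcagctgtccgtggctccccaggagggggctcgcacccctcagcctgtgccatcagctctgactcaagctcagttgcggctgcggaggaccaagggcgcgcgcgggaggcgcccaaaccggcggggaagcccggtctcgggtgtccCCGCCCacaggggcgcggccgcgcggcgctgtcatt
Car4 (chr11:84957504-84957753, plus strand): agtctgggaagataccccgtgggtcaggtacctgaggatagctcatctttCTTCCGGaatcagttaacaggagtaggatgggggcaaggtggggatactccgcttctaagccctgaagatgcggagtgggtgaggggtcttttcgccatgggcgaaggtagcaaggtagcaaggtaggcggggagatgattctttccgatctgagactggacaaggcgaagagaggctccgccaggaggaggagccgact
Mfsd2a (chr4:122961189-122961438, minus strand): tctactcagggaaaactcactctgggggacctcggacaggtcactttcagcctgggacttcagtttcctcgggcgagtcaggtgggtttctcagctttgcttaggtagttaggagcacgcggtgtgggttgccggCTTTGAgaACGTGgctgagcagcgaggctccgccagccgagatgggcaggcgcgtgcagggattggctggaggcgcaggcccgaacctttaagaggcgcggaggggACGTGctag
The Slc7a1 window shown held 1 SP/KLF core, the Car4 window 1 ETS core, and the Mfsd2a window 1 TCF/LEF core and 2 HIF cores. A second window of Slc7a1, not shown, held 3 TCF/LEF cores, 1 SOX core and 1 STAT core. The window of Abcb1a held 2 TCF/LEF cores and 1 FOX core. It lies at chr5:8566841-8567090, far upstream of the GENCODE span of Abcb1a, chr5:8660077-8748575 on the plus strand. The window of Slc2a1 held 2 SP/KLF cores and 1 HIF core. Of the 12 windows of the 9 genes, 3 held the TCF/LEF core, 3 the SOX core, 3 the HIF core, 5 the SP/KLF core, and 1 each the FOX, ETS and STAT cores. Among all 32851 RefSeq windows of that length, 13.8% held the TCF/LEF core, 10.7% the SOX core, 16.6% the HIF core, 32.7% the SP/KLF core, 3.17% the FOX core, 6.91% the ETS core and 7.02% the STAT core. A match is a run of letters and not a measured binding site, and these windows were not linked to any value below.

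The 10 transporters marked endothelium, with Car4 as the exception. In naive TRAIL-, capillary, arterial and venous-like barcodes together held 89.9% to 97.9% of the library's UMIs of each of the 9 other genes, and 62.9% of those of Car4. In EAE TRAIL- the range for the 9 genes was 83.6% to 97.4%, and Car4 had 28.3%. The rest of the Car4 UMIs were mostly in pericyte-like barcodes. With each barcode thinned to 500 UMIs, a capillary-like barcode of naive TRAIL- carried UMIs of 4.10 ± 1.55 of the 10 genes (SD over 904 barcodes), against 0.218 ± 0.522 in 316 microglia-like barcodes. Of the thinned capillary-like barcodes, 902 of 904 had a UMI of at least 1 of the genes in naive TRAIL- and 382 of 387 in EAE TRAIL-.

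**Figure D1:**
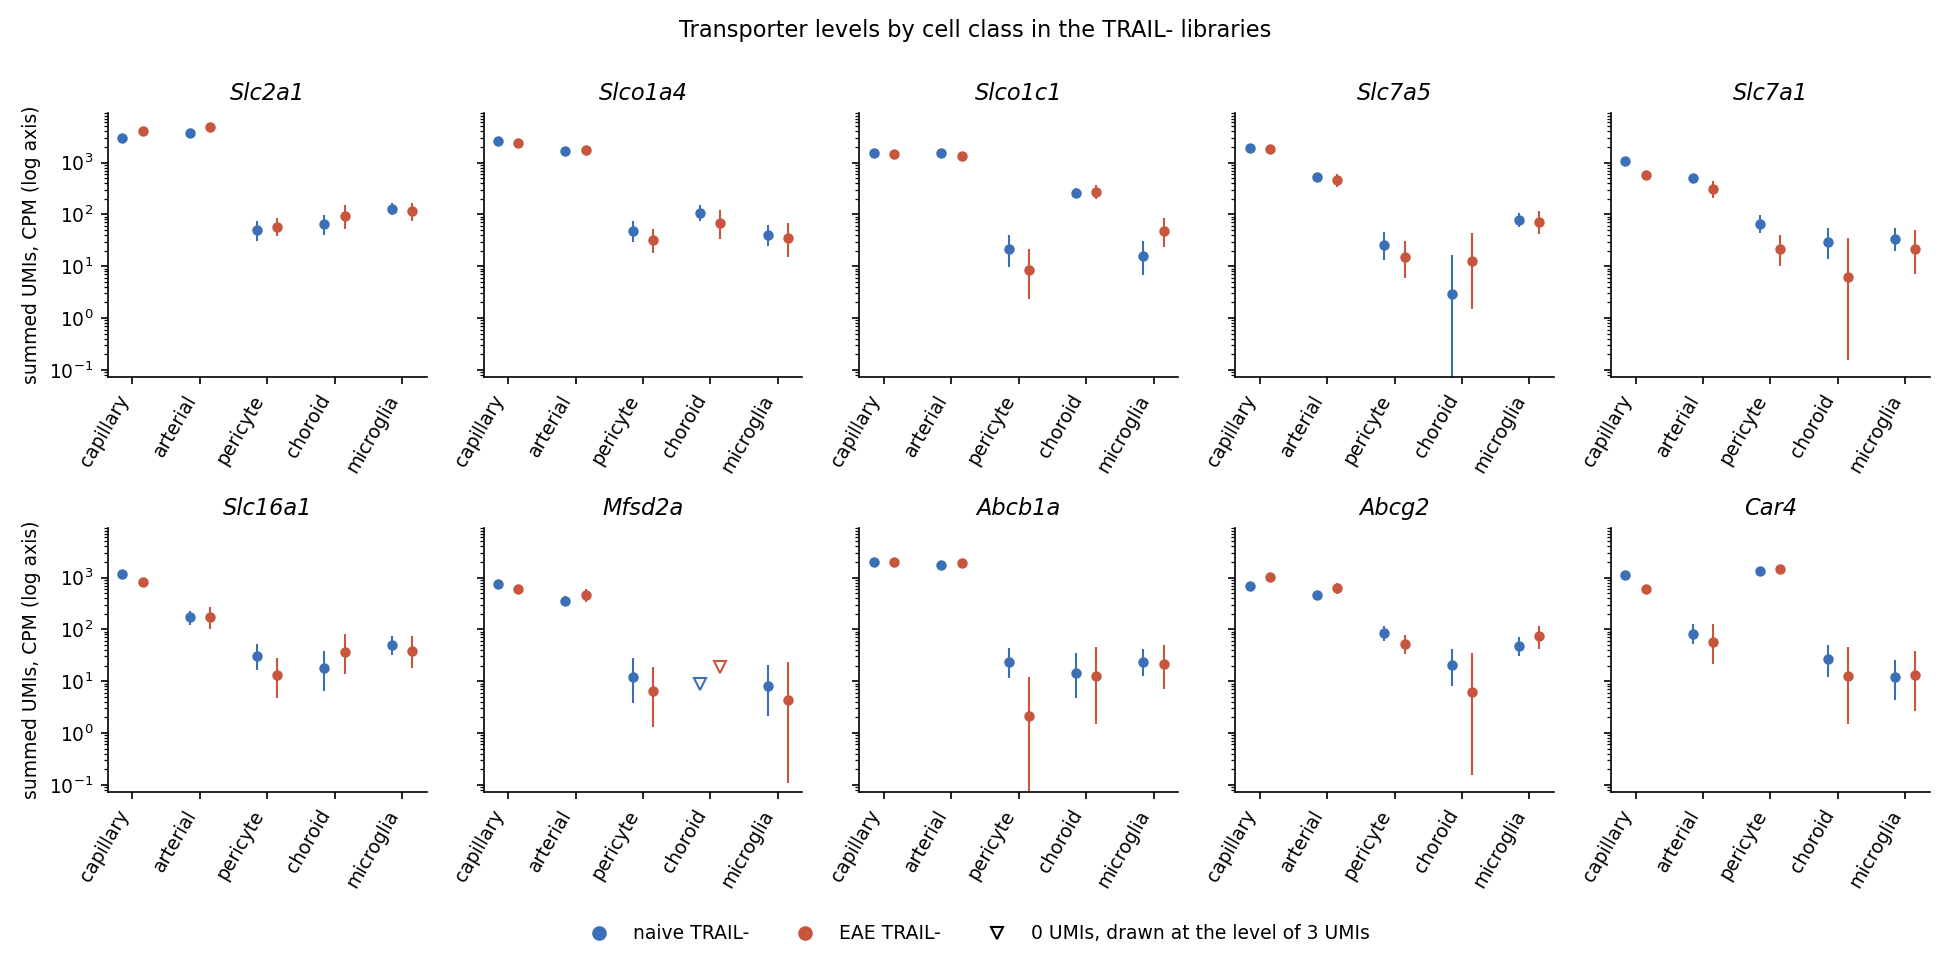
Level of each transporter in 5 cell classes of the naive TRAIL- (blue) and EAE TRAIL- (red) libraries, as CPM of the class's summed UMIs on a log axis; bars are exact 95% Poisson intervals, and triangles mark 0 UMIs drawn at the level of 3 UMIs. Capillary and arterial-like levels stand above the other classes for 9 genes, while Car4 is near 1320 CPM in pericyte-like and 83.0 CPM in arterial-like barcodes of naive TRAIL-.

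Against pericyte-like barcodes, 9 of the 10 genes were higher in capillary-like barcodes of naive TRAIL- at 1.5-fold, where 26.7% of 4065 compared genes were higher. Their median log2 ratio was 5.86, against -0.14 over all compared genes. Abcb1a was measured at 1995 CPM in capillary-like and 23.7 CPM in pericyte-like barcodes, an 84.2-fold difference (45.7 to 176). Slc2a1 stood at 2996 against 49.8 CPM, 60.2-fold (39.3 to 97.4). Abcg2 had the smallest ratio of the 9, 8.12-fold (5.79 to 11.7), from 693 and 85.3 CPM. In EAE TRAIL- the same count was 9 of 10, where 28.1% of 3920 compared genes were higher.

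Car4 was as high in pericyte-like as in capillary-like barcodes. Its pericyte-like level was 1320 CPM (1213 to 1434) for naive TRAIL- and 1458 CPM (1350 to 1572) for EAE TRAIL-. The capillary-like levels were 1139 (1067 to 1214) and 606 (533 to 686) CPM in the same order. In naive TRAIL- the pericyte-like level was thus 1.16-fold higher (1.04 to 1.29), and in EAE TRAIL- 2.41-fold higher (2.08 to 2.79). Pericyte-like barcodes with no UMI of the 20 endothelial markers still carried Car4 at 1108 CPM (931 to 1308, 163 barcodes) in naive TRAIL- and 1356 CPM (1156 to 1580, 132 barcodes) in EAE TRAIL-. Capillary-like barcodes with no UMI of the 16 pericyte markers carried it at 1128 CPM (1041 to 1220, 625 barcodes) and 638 CPM (551 to 736, 287 barcodes). Car4 was thus present in each class without the other class's markers, while arterial-like barcodes had 83.0 CPM (21 UMIs) and 58.1 CPM (6 UMIs).

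Choroid plexus epithelium forms the other barrier of the brain, between blood and cerebrospinal fluid. All 10 genes were higher in capillary-like than in choroid plexus-like barcodes of naive TRAIL-, where 37.4% of 3809 compared genes were higher, and their median log2 ratio was 5.49 against -0.01 over all compared genes. Slco1c1 was the closest, at 1509 against 261 CPM, 5.79-fold (4.67 to 7.26). Its choroid plexus-like level was much the same in the other libraries, 272 CPM in EAE TRAIL- and 315 CPM in the 10 barcodes of naive TRAIL+. Choroid plexus-like barcodes with no endothelial marker UMI had 247 CPM of Slco1c1 (166 to 355, 43 barcodes) in naive TRAIL- and 273 (178 to 399, 28 barcodes) in EAE TRAIL-. Slco1a4 was measured over the whole choroid plexus-like class at 108 and 68.0 CPM, and at 111 and 105 CPM (13 and 10 UMIs) in those barcodes without an endothelial marker UMI. Mfsd2a had 0 UMIs in both libraries' choroid plexus-like barcodes, so it was at least 84.3-fold higher in capillary-like barcodes of naive TRAIL- against a floor of 3 UMIs. Slc7a5 had 1 UMI in that class in naive TRAIL- and 2 in EAE TRAIL-.

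Within endothelium the genes split by vessel type. In naive TRAIL-, 7 of 10 were higher in capillary-like than in arterial-like barcodes at 1.5-fold, where 13.6% of 3669 compared genes were higher, and 0 were lower. The median log2 ratio of the 10 was 0.86, against -0.03 over all compared genes. In EAE TRAIL- 5 of 10 were higher, where 20.5% of 3675 compared genes were higher.

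The steepest gradients belonged to Car4, Slc16a1 and Slc7a5. Car4 was 13.7-fold higher in capillary-like barcodes of naive TRAIL- (8.92 to 22.3) and 10.4-fold higher in EAE TRAIL- (4.72 to 28.7). Slc16a1 was measured at 1175 against 170 CPM in naive TRAIL-, 6.91-fold (5.09 to 9.61), and at 803 against 174 CPM in EAE TRAIL-, 4.61-fold (2.87 to 7.87). Slc7a5 stood at 1881 against 518 CPM, 3.63-fold (3.04 to 4.37), and at 1868 against 465 CPM, 4.02-fold (3.00 to 5.50). All 3 genes had the capillary-like class on top in both libraries, but the size of the gap depended on which barcodes were called arterial-like. A second clustering of the endothelial barcodes gave an arterial-like sub-cluster of 100 barcodes in naive and 43 in EAE TRAIL-. Of these, 46 and 25 were in the capillary-like class, so it is not a subset of the arterial-like class. Against only that sub-cluster, the log2 ratio in naive TRAIL- was 1.44 for Car4 in place of 3.78, 1.46 for Slc16a1 in place of 2.79 and 0.83 for Slc7a5 in place of 1.86. In EAE TRAIL- it was 3.32 for Car4 in place of 3.38 and 1.45 for Slc7a5 in place of 2.01, while Slc16a1, at 0.46 in place of 2.20, no longer reached 1.5-fold.

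A middle group had smaller ratios. Slc7a1 was 2.15-fold higher in capillary-like barcodes of naive TRAIL- (1.78 to 2.61) and 1.89-fold in EAE TRAIL- (1.31 to 2.83). Mfsd2a was 2.11-fold higher (1.68 to 2.66) in naive TRAIL- and 1.33-fold (0.971 to 1.86) in EAE TRAIL-. Slco1a4 was 1.56-fold higher (1.40 to 1.73) and 1.32-fold higher (1.13 to 1.55). Abcg2 was 1.51-fold higher (1.24 to 1.86) and 1.66-fold higher (1.27 to 2.20), so it lay just past the fold used for counting. Against the arterial-like sub-cluster alone, Slco1a4 in naive TRAIL- (log2 ratio 0.41) and Abcg2 in EAE TRAIL- (0.21) did not reach 1.5-fold. The change in ratio between the libraries was not tested.

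The other 3 genes lay within 1.5-fold between the vessel types. Slc2a1 was higher in arterial-like barcodes, by 1.27-fold in naive TRAIL- (1.17 to 1.37) and 1.19-fold in EAE TRAIL- (1.08 to 1.31). Slco1c1 was measured at 1509 in capillary-like and 1522 CPM in arterial-like barcodes of naive TRAIL-, a ratio of 0.991 (0.883 to 1.11). Abcb1a was slightly higher in capillary-like barcodes of naive TRAIL-, with a ratio of 1.17 (1.05 to 1.30), and had a ratio of 1.01 (0.868 to 1.19) in EAE TRAIL-. Among the 44 measured genes of a list of 49 other barrier transporters and receptors, 22 were higher in capillary-like barcodes of naive TRAIL- and 5 lower. At the floor of 10 CPM used for lists, 23.4% of 8683 genes were higher and 21.8% lower. The list shares Tfrc, Slc16a4 and Slc38a5 with the capillary markers that named the class. Unlike the 10 transporters, its genes were not left out of clustering, so this count is not independent of the classes.

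**Figure D2:**
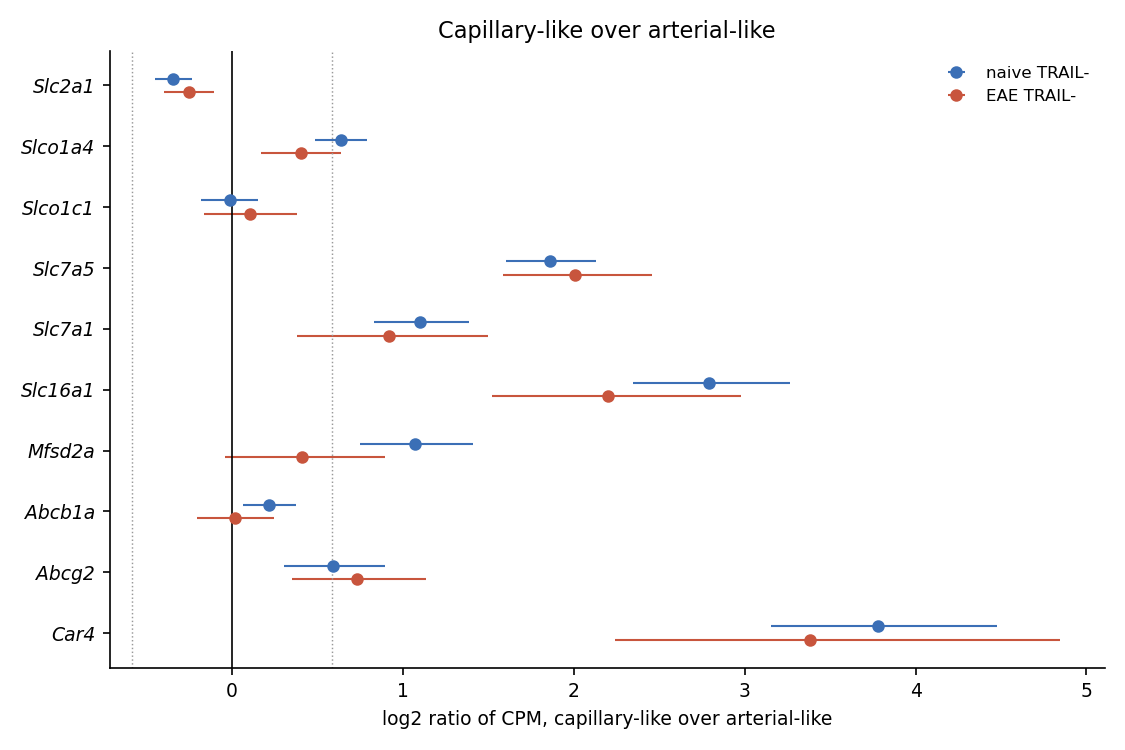
Log2 ratio of CPM in capillary-like over arterial-like barcodes for each transporter, in naive TRAIL- (blue) and EAE TRAIL- (red), with exact 95% intervals; dotted lines mark 1.5-fold. Car4, Slc16a1 and Slc7a5 lie farthest to the right in both libraries and Slc2a1 lies left of 0 in both.

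The venous-like class, which may hold activated endothelium as well as veins, was too small for a close order. Its 23 barcodes in EAE TRAIL- carried Abcg2 at 1779 CPM (53 UMIs), 1.73-fold above the capillary-like level (1.27 to 2.30). Slco1c1 was 2.07-fold lower than in capillary-like barcodes (1.34 to 3.37) and Mfsd2a 2.26-fold lower (1.13 to 5.28, 8 UMIs).

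In capillary-like barcodes of the TRAIL- libraries, 2 of 10 genes were lower in EAE at 1.5-fold, Slc7a1 and Car4, where 14% of 3616 compared genes were lower, and 0 of 10 were higher, where 11% were, so the lower count lay near the share of all genes. The median log2 ratio of the 10 was -0.11, against -0.05 over all compared genes. The intervals of Slco1c1, Slc7a5 and Abcb1a included a ratio of 1, and those of the other genes did not. They cover counting error only, and the share of all compared genes with such an interval was not computed.

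Among the amino acid carriers, Slc7a1 was lower and Slc7a5 was not. Slc7a1 was measured at 1071 CPM (1001 to 1144) in naive TRAIL-, 586 CPM (515 to 665) in EAE TRAIL- and 979 CPM (712 to 1315) in naive TRAIL+. Both naive levels lay above the EAE level, by 1.83-fold (1.58 to 2.12) and 1.67-fold (1.18 to 2.31). Slc7a5 was measured at 1881, 1868 and 1981 CPM in the same order, with an EAE over naive TRAIL- ratio of 0.993 (0.910 to 1.08). Slc3a2, whose product is the heavy chain that pairs with LAT1, was 1.36-fold higher in EAE TRAIL- than in naive TRAIL- (1.23 to 1.51), at 1450 against 1065 CPM. Its level in naive TRAIL+ was 846 CPM.

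Car4 was also lower in EAE, but only against 1 of the naive libraries. Its level of 606 CPM in EAE TRAIL- was 1.88-fold below naive TRAIL- (1.63 to 2.17). The 42 capillary-like barcodes of naive TRAIL+ had 645 CPM (432 to 927, 29 UMIs), which differed from EAE TRAIL- by 1.07-fold (0.699 to 1.57). The 2 naive libraries thus differed from each other by 1.76-fold (1.22 to 2.65), about as much as naive TRAIL- and EAE TRAIL-. Mfsd2a was the other gene past 1.5-fold between the naive libraries, 1.75-fold lower in naive TRAIL+ (1.11 to 2.93, 19 UMIs), and 19.5% of 3725 compared genes were lower there by that much.

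Of the energy carriers, Slc2a1 was higher in EAE and Slc16a1 lower. Slc2a1 was measured at 2996 CPM (2879 to 3116) in naive TRAIL-, 4149 CPM (3955 to 4351) in EAE TRAIL- and 2626 CPM (2174 to 3145) in naive TRAIL+. The EAE level lay above both naive levels, by 1.38-fold (1.30 to 1.47) and 1.58-fold (1.31 to 1.92). Slc16a1 was measured at 1175, 803 and 1691 CPM, so EAE lay below both, by 1.46-fold (1.29 to 1.66) and 2.11-fold (1.62 to 2.71). Bsg, whose product basigin carries MCT1 to the membrane, was 1.13-fold lower in EAE TRAIL- than in naive TRAIL- (1.08 to 1.18). Against naive TRAIL+, 2 of the 10 genes were lower in EAE at 1.5-fold (Slc7a1 and Slc16a1), where 32.9% of 3726 compared genes were lower, and 2 were higher (Slc2a1 and Abcg2), where 21.1% were. Both sets of ratios share the EAE library, and the naive TRAIL+ values rest on 42 barcodes.

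The efflux pumps differed from each other. Abcb1a had 1995 CPM in naive TRAIL-, against 1973 for EAE TRAIL- and 2181 for naive TRAIL+, and its EAE over naive TRAIL- ratio was 0.989 (0.908 to 1.08). Abcg2 was measured at 693 CPM, 1029 CPM and 579 CPM, so EAE lay 1.49-fold above naive TRAIL- (1.31 to 1.69) and 1.78-fold above naive TRAIL+ (1.20 to 2.75). The paralogue Abcb1b, which also encodes a P-glycoprotein, had 94.6 and 131 CPM in capillary-like barcodes of naive and EAE TRAIL- (78 and 54 UMIs). Reads shared by Abcb1a and Abcb1b could have been split or dropped in the authors' counting.

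The organic anion carriers and Mfsd2a lay closer to 1. Slco1a4 was 1.13-fold lower in EAE TRAIL- than in naive TRAIL- (1.04 to 1.21), at 2367 against 2663 CPM, and its naive TRAIL+ level was 2359 CPM. Slco1c1 was measured at 1509, 1457 and 1157 CPM in naive TRAIL-, EAE TRAIL- and naive TRAIL+. Mfsd2a was 1.22-fold lower in EAE TRAIL- than in naive TRAIL- (1.05 to 1.42), at 606 against 741 CPM, but stood above the 423 CPM of naive TRAIL+. The near copies Slco1a5 and Slco1a6 had 2 and 3 UMIs in capillary-like barcodes of EAE TRAIL-, and 0 and 2 in naive TRAIL-.

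**Figure D3:**
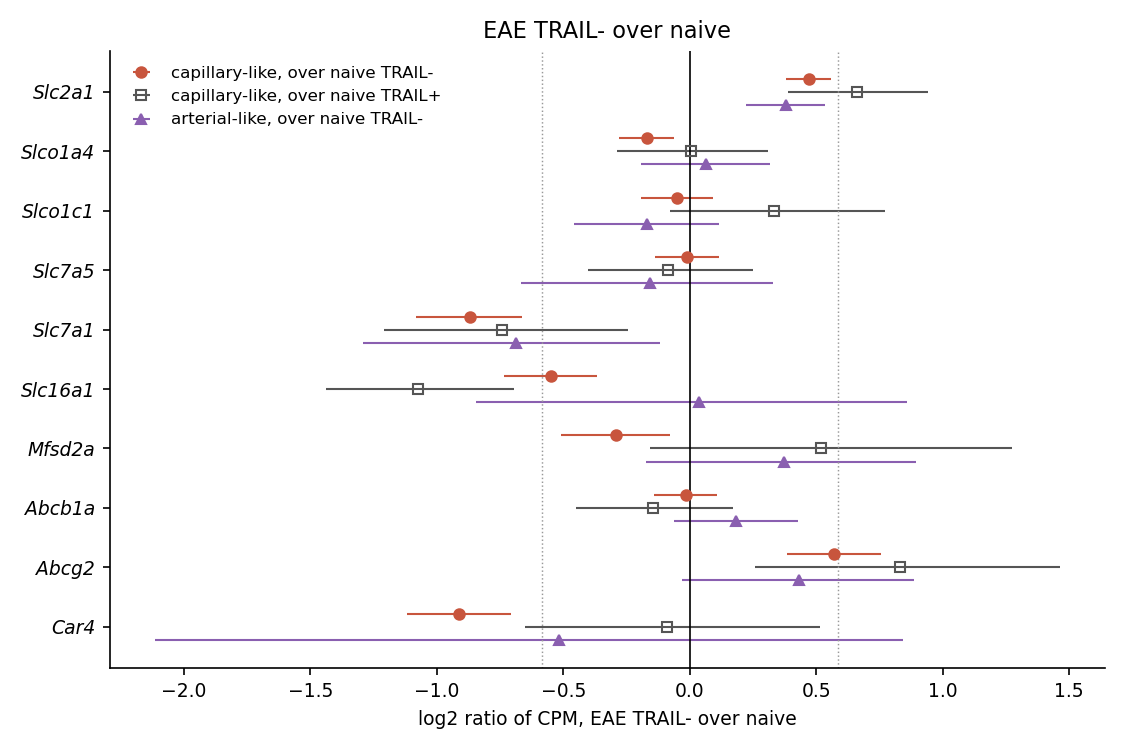
Log2 ratio of CPM in EAE TRAIL- over naive for each transporter, in capillary-like barcodes against naive TRAIL- (red circles) or naive TRAIL+ (open grey squares) and in arterial-like barcodes against naive TRAIL- (purple triangles), with exact 95% intervals; dotted lines mark 1.5-fold. Slc7a1 lies left of 0 and Slc2a1 right of 0 in all 3 comparisons, while Car4 is near 0 against naive TRAIL+.

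The levels can be read as shares of cells. Thinned to 500 UMIs, with no barcode left out, 30.9% of capillary-like barcodes of naive TRAIL- (27.9 to 34.0) and 17.1% of EAE TRAIL- (13.4 to 21.2) had a UMI of Slc7a1. For Car4 the shares were 34.5% (31.4 to 37.7) and 20.4% (16.5 to 24.8). Slc2a1 was seen in 67.5% (64.3 to 70.5) and 79.8% (75.5 to 83.7), and Abcg2 in 21.3% (18.7 to 24.2) and 29.7% (25.2 to 34.5). These 4 shares differed in the same direction as the CPM, but they come from the same UMIs and libraries. They are thus no separate evidence, and such shares were not computed over all genes. The shares before thinning were 38.7% and 26.6% for Slc7a1, 46.3% and 32.3% for Car4, 81.5% and 91.7% for Slc2a1, and 30.1% and 42.9% for Abcg2. In microglia-like barcodes of naive TRAIL-, the thinned shares of these genes were 2.22%, 0.633%, 5.06% and 2.85%. Microglia-like barcodes of naive TRAIL+ without an endothelial marker UMI held Slc2a1 at 65.6 and Abcg2 at 50.4 CPM. Slco1a4 and Abcb1a were at 1.27 and 2.54 CPM there. How much of the microglia-like shares is free RNA was not tested. Median depths were 867 UMIs in capillary-like and 1529 UMIs in microglia-like barcodes of that library, and 1008 UMIs in capillary-like barcodes of EAE TRAIL-.

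**Figure D4:**
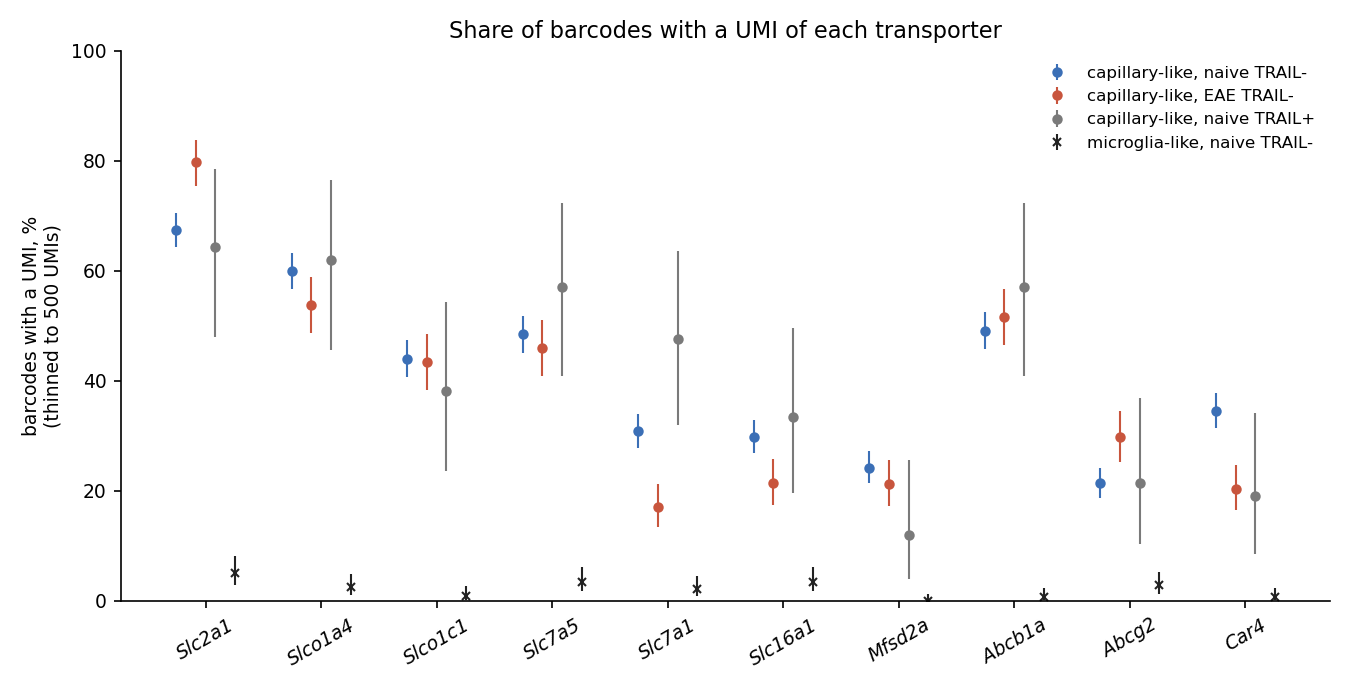
Share of barcodes with a UMI of each transporter after thinning to 500 UMIs, in capillary-like barcodes of naive TRAIL- (blue), EAE TRAIL- (red) and naive TRAIL+ (grey) and in microglia-like barcodes of naive TRAIL- (black crosses), with exact 95% binomial intervals. Slc7a1 and Car4 are lower and Slc2a1 and Abcg2 higher in EAE TRAIL- than in naive TRAIL-, and all capillary-like shares stand above the microglia-like ones.

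Capillary-like barcodes fell into 9 sub-clusters present in both TRAIL- libraries and found without the transporters; 1 of these was led by the arterial gene Gkn3. Slc7a1 and Car4 were lower in EAE in 9 of 9, and Slc2a1 was higher in 9 of 9. Slc16a1 was lower in 8 of 9, and Abcg2 was higher in 7 of 9. Slc7a1 ranged from 816 to 1514 CPM over the sub-clusters in naive TRAIL- and from 238 to 964 CPM in EAE TRAIL-. Its naive and EAE levels were closest in the sub-cluster led by Wsb1 and the immediate early genes Fosb and Egr1, at 992 and 964 CPM. Sub-clusters share the same pair of libraries and are not replicates.

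Several measures of the capillary-like class moved with EAE. The summed capillary markers were at 18827 CPM in naive TRAIL- and 16162 in EAE TRAIL-, with all 16 detected in each. Arterial markers were at 2591 and 3203 CPM (23 and 21 of 24 detected), pericyte markers at 764 and 499 CPM (16 of 16 in each), and microglia markers at 3362 and 2063 CPM (15 and 13 of 15). Choroid plexus markers were at 743 and 404 CPM, with 16 and 9 of 19 detected. Higher in EAE TRAIL- were the sums of monocyte markers, at 1656 and 2286 CPM (9 and 10 of 12 detected), fibroblast markers, at 1744 and 2333 CPM (10 and 8 of 11), oligodendrocyte markers, at 874 and 1318 CPM (14 and 10 of 14), and venous markers, at 1310 and 1661 CPM (14 of 17 in each). The monocyte and fibroblast lists both hold the gene Fn1, so their sums are not separate measures. How much of each sum was Fn1 was not separated out. Median mitochondrial shares were 3.36% and 4.94%. The part of these measures in the transporter differences was not tested, except that in barcodes without a pericyte marker UMI Slc7a1 was at 1077 and 595 CPM and Slc2a1 at 2990 and 3989 CPM.

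In arterial-like barcodes 1 of 10 genes was lower in EAE TRAIL- at 1.5-fold, where 22.8% of 3709 compared genes were lower, and 0 were higher, where 24.1% were. That gene was Slc7a1, at 310 against 498 CPM, 1.61-fold (1.08 to 2.45, 32 UMIs in EAE). Slc2a1 was 1.30-fold higher (1.17 to 1.45), at 4937 against 3796 CPM. Both genes therefore had the same direction as in capillary-like barcodes. The intervals of the other 8 genes included a ratio of 1, and Car4 rested on 6 UMIs in EAE TRAIL-. Its log2 ratio of -0.52 ran from -0.68 to 1.29 over 7 alternatives, so no direction can be read for it.

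Read over the whole library, without classes, the genes gave another picture. In all barcodes of EAE TRAIL-, 7 of 10 were lower than in naive TRAIL- at 1.5-fold, where 17.4% of 4061 compared genes were lower, and 0 were higher, where 12.7% were. Abcb1a was 1.78-fold lower (1.66 to 1.92) over the library, against 1.01-fold (0.929 to 1.10) within capillary-like barcodes, and Slc7a5 was 1.83-fold lower (1.69 to 1.99) against 1.01-fold (0.923 to 1.10). Even Slc2a1, higher in EAE within capillary-like barcodes, was 1.28-fold lower (1.22 to 1.35) over the library. Capillary-like barcodes were 40.8% of naive TRAIL- (38.7 to 42.8) and 24.7% of EAE TRAIL- (22.5 to 26.9). Summed over a library, fewer cells of a type and less RNA per cell cannot be told apart.

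Genes of related function were counted from fixed lists in capillary-like barcodes, EAE TRAIL- over naive TRAIL-, at a floor of 10 CPM where 19.9% of 8695 genes were higher, 20.7% lower and the median log2 ratio was -0.03. Of 43 measured genes of the 49 other barrier transporters and receptors, 2 were higher and 9 lower, with a median of -0.17. The lowest was Slc29a1, the nucleoside carrier ENT1, at 14.6 against 72.8 CPM, 4.99-fold (2.16 to 14.1), followed by Abcc6 (2 against 19 UMIs, 1.14 to 41.9) and Slc44a1, a choline carrier, at 2.15-fold lower (1.34 to 3.60). Paqr5, a membrane progestin receptor, was 2.10-fold higher (1.63 to 2.71), and the efflux pump Abcc4 1.66-fold higher (1.35 to 2.04). The 10 measured paralogues of the transporters, of 34 listed, had 5 higher and 2 lower. Slc16a9 was 1.68-fold higher (1.27 to 2.22), from 116 and 97 UMIs. Slc7a3, a cationic amino acid carrier like Slc7a1, had 2 UMIs in naive and 9 in EAE TRAIL- barcodes, a ratio of 9.02 (1.87 to 85.8), and Abcg3 had 7 and 18. Car14 was lower, with 27 and 5 UMIs.

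The Wnt and barrier programme includes targets and receptors of the Wnt signal that maintains brain endothelium. Of its 32 measured genes, 0 were higher and 8 lower. Among all 8695 genes 19.9% were higher and 20.7% lower, so the lower count lay near the share of all genes. The median log2 ratio of the list was -0.39, against -0.03 over all genes. Nkd1, a feedback target of Wnt signalling, was at 484 CPM in naive and 173 CPM in EAE TRAIL- barcodes, 2.80-fold lower (2.17 to 3.66). Axin2, another feedback target, was 2.08-fold lower (1.48 to 2.97), and the co-receptor Lrp6 2.38-fold lower (1.42 to 4.21). Endothelial activation genes had 14 of 22 higher and 0 lower, with a median of 0.85. Lrg1 and Cxcl9 had 0 UMIs in naive TRAIL-, and 15 and 9 in EAE TRAIL-. Icam1, the leukocyte adhesion molecule, was at 58.2 and 207 CPM, 3.55-fold higher (2.46 to 5.17). Gbp2 and Irf1, interferon-induced genes, were 2.38-fold (1.78 to 3.17) and 2.21-fold (1.64 to 2.98) higher.

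Hypoxia and glycolysis genes, which were listed beside Slc2a1, had 4 of 15 higher and 0 lower, with a median of 0.13. The higher count lay near the 19.9% of all 8695 genes that were higher. Adm, the vasodilator adrenomedullin, was 2.94-fold higher (2.11 to 4.13), Ddit4 2.37-fold (1.92 to 2.92) and Gapdh 2.27-fold (1.43 to 3.61). Gapdh had only 38 and 43 UMIs and has many near-identical pseudogene copies, so its count is uncertain. Amino acid stress genes had 3 of 8 higher and 0 lower: Trib3 with 9 and 12 UMIs, Ddit3 with 16 and 19, and Xbp1, 1.80-fold higher (1.37 to 2.36). Of the vesicle and fenestra genes, 1 of 10 was higher, Cavin2 at 1.53-fold (1.21 to 1.93), and 2 were lower, of which Rab5a at 1.65-fold (1.10 to 2.54) had an interval that excluded 1.

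**Figure D5:**
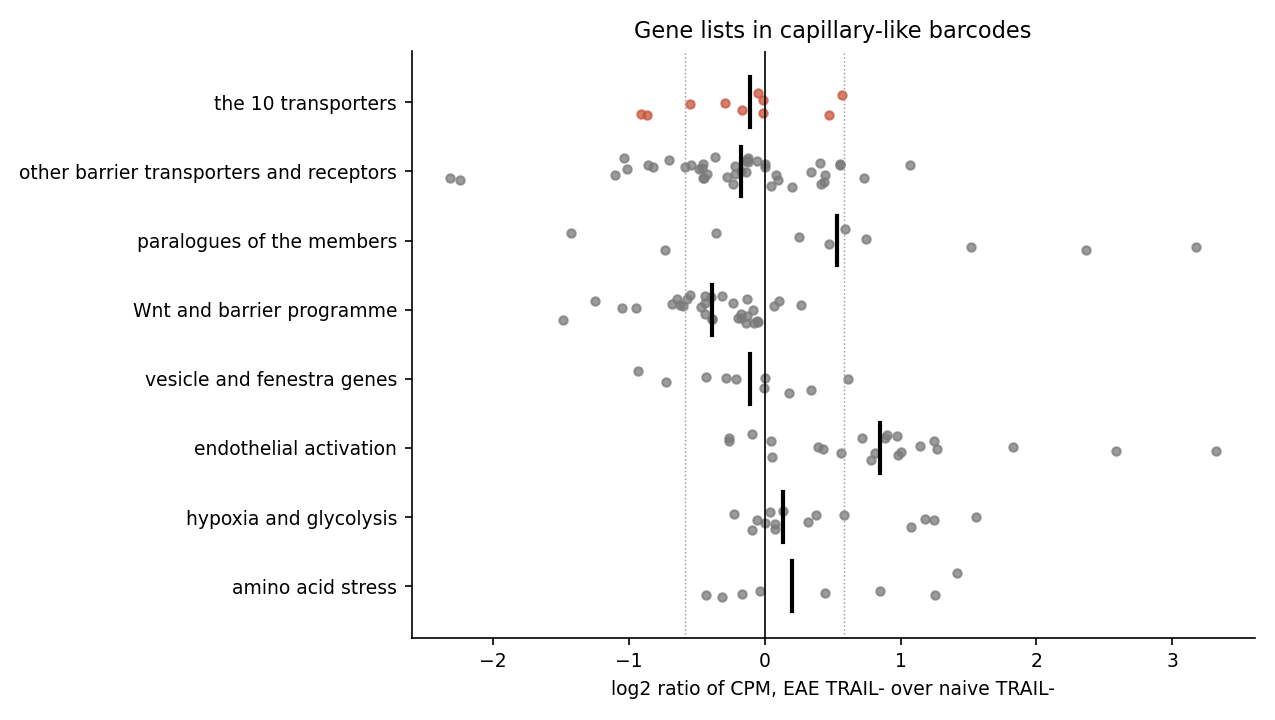
Log2 ratio of CPM, EAE TRAIL- over naive TRAIL-, in capillary-like barcodes for the 10 transporters (red) and the measured members of 7 gene lists (grey); black bars are medians, dotted lines mark 1.5-fold, and genes with 0 UMIs in naive TRAIL- (Lrg1 and Cxcl9) are drawn at a floor of 3 UMIs. The transporters' median is -0.11, that of the Wnt and barrier programme -0.39 and that of endothelial activation 0.85.

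Over 22 sums of a class in a library with at least 50000 UMIs, the genes most like the mean profile of the transporters on a log2(CPM + 10) scale were Spock2 (Pearson's r = 0.975), Ocln (0.973), Ptprb (0.971), Foxf1 (0.967) and Pglyrp1 (0.965). Within the set, each gene's r with the mean of the other 9 ran from 0.953 for Slco1a4 and 0.941 for Slc7a1 down to 0.787 for Slc16a1 and 0.562 for Car4. These sums share libraries and a contrast between endothelium and other cells, so r is a description and carries no test.

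Outside endothelium, most levels were low and a few were not. Monocyte-like barcodes of EAE TRAIL- carried Slc2a1 at 354 CPM (307 to 405, 223 barcodes), 3.05-fold above the microglia-like barcodes of that library (2.04 to 4.74). Those of EAE TRAIL+ had 280 CPM (229 to 340, 129 barcodes). In monocyte-like barcodes of EAE TRAIL- without an endothelial marker UMI the level was 349 CPM (256 to 466, 69 barcodes). Abcb1a stood at 23.8 CPM in the same class, so the whole set was not present. Astrocyte-like barcodes of naive TRAIL+ held Slco1c1 at 233 CPM (172 to 307), Slc2a1 at 237 CPM (176 to 313) and Mfsd2a at 109 CPM (69.2 to 164). In the 120 of these 146 barcodes without an endothelial marker UMI the levels were 267, 261 and 101 CPM, while microglia-like barcodes of the same library had 2.27, 72.7 and 1.95 CPM.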

How the data were processed

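The deposited tables hold raw UMI counts per barcode and gene symbol for 4 inDrops libraries, and per the labels the standard v3 protocol was used. The submitters' processing notes name Bowtie and GRCm38, without versions, settings or annotation. The authors' tables start at 100 UMIs per barcode. Totals were 3109387 UMIs in naive TRAIL-, 2856696 in EAE TRAIL-, 3967680 in naive TRAIL+ and 3984975 in EAE TRAIL+.

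Barcodes with at least 500 UMIs and at most 20% mitochondrial counts were kept (7899 of 12987). Scrublet in scanpy 1.11.5 (expected rate 5%) called 41, 28, 4 and 4 doublets in naive TRAIL-, EAE TRAIL-, naive TRAIL+ and EAE TRAIL+, which were removed; the low counts in the TRAIL+ libraries mean that doublets there may remain. Clustering used 2000 variable genes without the transporters, 30 components, 15 neighbours and Leiden resolution 1. A cluster was named with at least 2 markers of a list among its 10 leading genes and 5 among 100. Endothelial barcodes were clustered again (1500 genes, 15 components, resolution 0.8) to set venous-like barcodes apart. Rebuilt classes may differ from the authors'.

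Counts were summed per class and library and divided by their total to give CPM. Levels have exact Poisson, shares exact Clopper-Pearson and ratios exact conditional intervals at 95%, which treat UMIs as independent and cover counting error only; a count of 0 was set to 3 UMIs. The calculation was tested on simulated data. The transporters and gene lists were chosen with earlier results of these data known. Named are the 10 genes, their partners and near copies, up to 3 genes per list and direction with the largest EAE over naive ratio past 1.5-fold and an interval that excludes 1, and the 5 genes most like the transporters' mean profile. Alternatives changed the barcode filters, doublet removal, scaling, weighting, class assignment, fold and free RNA.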

Additional observations from a re-analysis of the deposited data

How the results depend on the processing

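Of 70 counts and shares recomputed under an alternative, 61 stayed close to the value reported and 9 moved, where close means within 1.5 times for a count and within the counting interval for a share. With a fold of 2 in place of 1.5, the genes lower in EAE numbered 0 in capillary-like barcodes, 0 in arterial-like barcodes and 4 over the whole library, and 3 were higher in capillary-like than in arterial-like barcodes of EAE TRAIL-. With free RNA subtracted, 4 genes were lower in EAE in capillary-like barcodes (Slc7a1, Car4, Slc16a1 and Mfsd2a). That subtraction overshoots: it gives pericyte-like barcodes of naive TRAIL- 510 CPM of Slc2a1 where 49.8 CPM were measured. In arterial-like barcodes the count of 1 became 0 at a minimum of 1000 UMIs, where Slc7a1 had a log2 ratio of -0.58 in place of -0.69, and 2 with classes taken from each barcode's marker UMIs (all marker lists competing); the cause was not tested. At a floor of 50 CPM, 5 of the other barrier transporters and receptors were lower in EAE in place of 9, as fewer genes are compared. Without thinning, 46.3% of capillary-like barcodes of naive TRAIL- had a UMI of Car4. Of 600 ratios recomputed, 484 stayed within their counting interval, and no difference reported past 1.5-fold changed sign. Among those reported under 1.5-fold, the EAE ratio of Car4 in arterial-like barcodes, -0.52 as log2, became 0.51 at a minimum of 1000 UMIs and 1.29 with free RNA subtracted. The arterial-like ratio of Slc16a1, 0.04 as log2, ran from -0.44 to 1.28, and that of Abcg2, 0.43, from 0.31 to 0.60. Each of these 2 genes was past 1.5-fold higher in 2 of 7 alternatives. Against the arterial-like sub-cluster alone, 12 of 20 capillary ratios moved, and 6 genes in naive and 4 in EAE TRAIL- were higher in place of 7 and 5. The EAE set itself changed, as Slc16a1 and Abcg2 dropped out and another gene came in. In EAE TRAIL-, Slco1a4, Mfsd2a and Abcb1a each passed 1.5-fold in 1 of 8 alternatives. Car4 in naive TRAIL- ranged from 1.44 there to 6.995 with free RNA subtracted. Slc7a1 was lower in EAE in capillary-like barcodes by 1.5-fold under 9 of 9 alternatives, with log2 ratios from -1.03 to -0.74. Car4 was so under 8 of 9, with -0.09 when naive TRAIL+ was the naive side. Slc2a1 had log2 ratios from 0.32 to 0.66, and Abcg2, from 0.50 to 0.83, was past 1.5-fold in 6 of 9. Slc16a1 ranged from -1.08 to -0.46, Mfsd2a from -0.62 to 0.52.

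With naive TRAIL+ as the naive side 2 genes were again lower in EAE, Slc7a1 and Slc16a1, where 32.9% of 3726 compared genes were. Leaving out pericyte-marked or endothelial-marked barcodes, the arterial-like sub-cluster and this exchange were chosen after seeing the data. The median log2 ratio over all compared genes was -0.14 and -0.12 for capillary-like over pericyte-like barcodes and -0.14 for the whole library. Free RNA and marker classes were not run for the whole library, where no class is used. Clustered with doublets kept, no cluster was arterial-like and 128 barcodes formed an arterial-like sub-cluster, so doublets were instead given the nearest class. No paired analysis was possible because each group has 1 library. The 3 capillary-like barcodes of EAE TRAIL+ and 12 arterial-like ones of naive TRAIL+ are too few for a comparison.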

Other observations

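Some transporters had levels in small classes that belong in no comparison. Oligodendrocyte-like barcodes carried Slc16a1 at 168 CPM (104 to 257, 75 barcodes) in naive TRAIL- and at 265 CPM (4 UMIs, 11 barcodes) in naive TRAIL+, and Slc16a1 encodes the lactate carrier known in these cells. Fibroblast-like barcodes held it at 306 CPM (181 to 483, 29 barcodes) in naive TRAIL- and 670 CPM (335 to 1199, 8 barcodes) in EAE TRAIL-. Only 5 of those 29 barcodes had no endothelial marker UMI, and they held 0 UMIs of Slc16a1 (upper limit 577 CPM). How much of the fibroblast-like level came from endothelial RNA was not tested. An unnamed cluster led by Fabp7, Npy and Frzb had Mfsd2a at 471 CPM (257 to 789) and Slc16a1 at 403 CPM (208 to 704) in its 20 barcodes of naive TRAIL+. The unnamed cluster led by Cd74, with 651 barcodes in EAE TRAIL+, had Slc2a1 at 87.8 CPM and Slc7a5 at 63.8 CPM, and 1 UMI of Slco1a4. No value was available for capillary-like barcodes at depth in EAE TRAIL+, where 3 barcodes held 3801 UMIs.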
